A study of Mus musculus with 8 samples.

Results

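Nuclear-encoded genes of the respiratory chain and ATP synthase were followed in RNA-seq of isolated epididymal white adipocytes, taken from Ad-Yap/Taz-KO mice and from wild-type (WT) mice. The members were the protein-coding genes whose symbols begin with Nduf (complex I), Uqcr (complex III), Cox4 to Cox8 (complex IV) or Atp5 (complex V, the ATP synthase), together with Sdha, Sdhb, Sdhc and Sdhd (complex II). Cox8b and Cox7a1 were left out, as were all genes of the mitochondrial chromosome. The rule gave 88 of the 30387 genes in the table, with 45 in complex I, 4 in complex II, 8 in complex III, 14 in complex IV and 17 in complex V. It read only symbols, so 7 of the members (Ndufaf1 to Ndufaf7) were assembly factors and 4 (Ndufa4l2, Cox4i2, Cox6a2 and Cox6b2) were tissue isoforms, which leaves 77 subunits and other genes. Among these 77, Atp5s and Atp5sl are not known as subunits of the ATP synthase, Ndufa4 is known as a component of complex IV although its symbol places it in complex I, and Cox7a2l is a factor of respiratory supercomplexes.

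Ad-Yap/Taz-KO mice (KO) carried floxed alleles of both Yap and Taz (fl/fl at each), deleted by a constitutive Cre under the promoter of the adiponectin gene Adipoq, and the WT mice were littermates. The study describes the deletion as specific to adipocytes. Whether other cells of the fat pad kept intact alleles was not measured in these data. Mice of each genotype received standard diet (SD, called normal chow in the labels) or high-fat diet (HFD) for 4 weeks from week 5 of age. The methods name a later week for the start of the diet. Each of the 4 groups held 2 libraries. The comparisons asked what the loss of YAP and TAZ did on each diet, what the diet did in each genotype, and whether the loss acted differently on the 2 diets.

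The respiratory chain passes electrons from NADH (complex I) and succinate (complex II) through ubiquinone to complex III, cytochrome c and complex IV, where oxygen is reduced. Complexes I, III and IV pump protons across the inner mitochondrial membrane, and complex V uses the returning protons to make ATP. Complexes I, III, IV and V are each built both from proteins encoded by mitochondrial DNA and from proteins encoded in the nucleus, whereas all subunits of complex II come from the nucleus. White adipocytes hold fewer mitochondria than brown ones, and use them among other things for fatty acid esterification and adipokine secretion.

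The values, called normalized counts here, are gene read counts that were scaled by a size factor for each library and then rounded, and they summed to 14890264 to 20994246 in a library. Taz, listed as Wwtr1, was at 5594, 4743, 7121 and 6807 in WT (SD first) and at 2441, 1957, 2060 and 2707 in KO, and Yap1 at 2333 to 2776 in WT and at 1549 to 2068 in KO, so both transcripts were still counted in the KO libraries. Wwtr1 was called lower on both diets, and Yap1 on SD (-0.71 on the log2 scale) but not on HFD (-0.42, adjusted p = 0.059, limma). Adipocyte markers were present in every library, with 8 genes summing to 148563 to 215178 normalized counts on SD, to 344939 and 337760 in WT on HFD, and to 163461 and 80897 in KO on HFD. The 8 macrophage markers summed to 4477 and 4496 in WT on SD, 28554 and 15602 in KO on SD, 2056 and 2073 in WT on HFD, and 30505 and 28024 in KO on HFD.

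Libraries of a group did not resemble each other to the same degree, which bears on every test below. Relative to the variance of counting alone, the WT HFD libraries differed by 5.86 times at 1000 to 5000 normalized counts and by 4.72 times at 5 to 20, whereas the ratio at the higher level was 25.8 for WT SD, 56.33 for KO SD and 83.76 for KO HFD. The study counts mice as its RNA-seq replicates, and as a caution the WT HFD libraries are given by both values with no SD, and each count of called members is also given for a fit that used their mean as 1 sample. The KO HFD libraries differed most for the members, of which 75 of the 87 tested were higher in replicate 1 than in replicate 2, by a median of 1.36-fold. In KO SD, 69 of 87 members were higher in replicate 2. The corresponding shares over all 18800 genes tested were 50.1% and 47.7%.

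**Figure D1:**
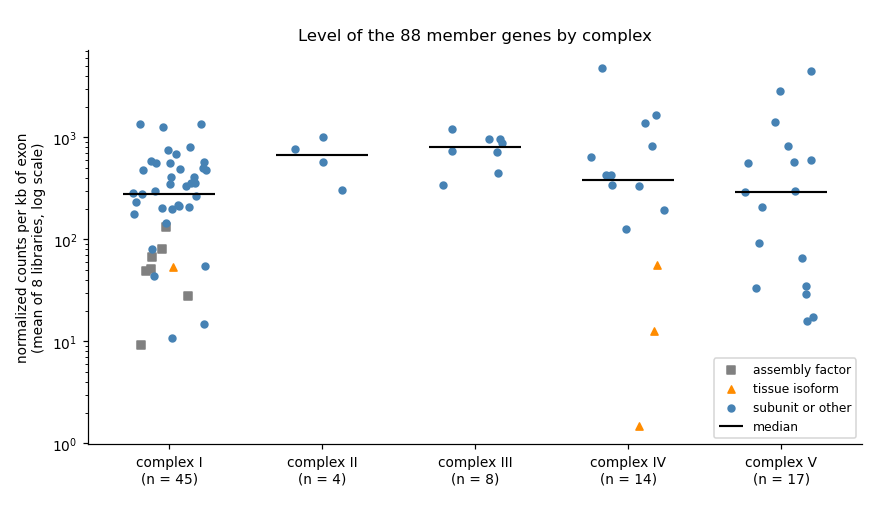
Level of each of the 88 members by complex, as the mean normalized count of 8 libraries per kilobase of exon on a log axis, with assembly factors and tissue isoforms marked and a bar at the median of each complex. The medians run from 276 in complex I to 802 in complex III, and the single highest members are Cox8a (complex IV) and Atp5b (complex V).

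The members took 0.46% to 0.64% of the normalized counts of a library. Levels between genes were compared per kilobase of exon, as the mean of 8 libraries. The highest was Cox8a, the ubiquitous form of a small complex IV subunit, at 4850 normalized counts per kilobase, followed by the catalytic β subunit of the ATP synthase, Atp5b, at 4520 and its partner α subunit, Atp5a1, at 2870. Cox4i1, the ubiquitous form of complex IV subunit 4, stood at 1670 and Ndufb9 of complex I at 1370. The median member of complex II stood at 674 and that of complex III at 802, against 276, 382.5 and 294 in complexes I, IV and V.

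In most sets of paralogs 1 gene was far above the others. Of the 3 genes for the same c subunit of the ATP synthase, Atp5g3 stood at 605 normalized counts per kilobase, Atp5g2 at 35.0 and Atp5g1 at 17.5. Cox4i1 exceeded its lung-type, hypoxia-linked isoform Cox4i2 (56.0), Cox6a1 (640) its muscle form Cox6a2 (1.47), Cox6b1 (1400) its testis form Cox6b2 (12.7), and Ndufa4 (205) its paralog Ndufa4l2 (54.0). Cox7a2 and the related Cox7a2l were closer, at 426 and 331. Cox6a2 was listed at 0 in 5 of 8 libraries and at 5 normalized counts at most, and was the 1 member that fell below the filter of a mean of 5. Low values of single subunits, such as Ndufb4 (10.8), Ndufb2 (14.9) and Atp5l (15.9), came with a limit, since reads that mapped to several places were discarded. In the same table stood 6 rows with matching symbols that were not protein-coding. Exon length was that of all annotated exons of a gene merged, 5628 bases for Ndufb2 and 6443 for Atp5l, so a long merge lowers the value. Atp5g1 (4912 bases) had a higher mean normalized count than Atp5g2 (1675 bases), 86.1 against 58.6, although its value per kilobase was lower. Overlap with a neighbour on the other strand was largest for Ndufaf2 (65.65% of its exon bases), Ndufb6 (39.0%, with Smim27) and Ndufa13 (29.98%, with Tssk6), and the sources used here do not state whether counting used strand.

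Promoter sequence, which the rule had not used, was searched for known motifs. RefSeq promoter windows (GRCm38.p6, 250 bases before to 50 bases after the start of transcription) were found for 73 of 88 members. The binding motif of nuclear respiratory factor 1 (GCGC, then A, then any base, then GCGC, searched on both strands as were all motifs) occurred in 19 of the 73, or 26.0%, against 5.19% of 27025 genes with a window. The core motif of ETS factors such as GABP (CTTCCGG) occurred in 23.3% against 9.93%, its longer form ACTTCCGG, which contains the core, in 6.85% against 4.31%, and the YY1 motif AAGATGGC in 15.1% against 3.19%. The motif of estrogen-related receptors (TCAAGGTCA) occurred in 2 members, 2.74% against 0.466%, and the TEAD motif CATTCC, the element of the factors that recruit YAP and TAZ, in 11.0% against 16.6%. The comparison was not matched for base composition, and a match describes letters only. Of the 9 members called lower in KO on HFD below, Sdhd and Cox6a1 held the nuclear respiratory factor motif, and their windows are shown for that reason, each 5′ to 3′ on the strand of the gene, with matches to any of the listed motifs in capitals.
Sdhd, chr9:50603800-50604099, minus strand: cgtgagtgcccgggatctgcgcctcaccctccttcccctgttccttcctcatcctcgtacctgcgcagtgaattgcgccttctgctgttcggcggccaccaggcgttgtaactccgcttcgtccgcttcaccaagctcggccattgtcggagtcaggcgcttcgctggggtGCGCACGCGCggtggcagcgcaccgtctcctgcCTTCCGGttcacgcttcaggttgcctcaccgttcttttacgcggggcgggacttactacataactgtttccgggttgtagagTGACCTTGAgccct
Cox6a1, chr5:115348909-115349208, minus strand: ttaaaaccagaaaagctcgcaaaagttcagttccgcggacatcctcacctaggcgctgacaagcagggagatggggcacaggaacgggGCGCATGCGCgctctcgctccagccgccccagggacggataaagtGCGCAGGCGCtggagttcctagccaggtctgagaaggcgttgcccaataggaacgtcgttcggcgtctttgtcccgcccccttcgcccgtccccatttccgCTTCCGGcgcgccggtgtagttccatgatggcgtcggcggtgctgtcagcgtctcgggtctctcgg
The Sdhd window held 1 match each to the nuclear respiratory factor, ETS core and estrogen-related receptor motifs, the last on the opposite strand as TGACCTTGA. The Cox6a1 window held the nuclear respiratory factor motif at 2 positions and the ETS core at 1. The windows of Ndufaf1, Ndufb7 and Atp5e held the ETS core, those of Ndufs4 and Atp5f1 the YY1 motif, that of Ndufb10 none of the 6, and Sdhc had no entry.

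**Figure D2:**
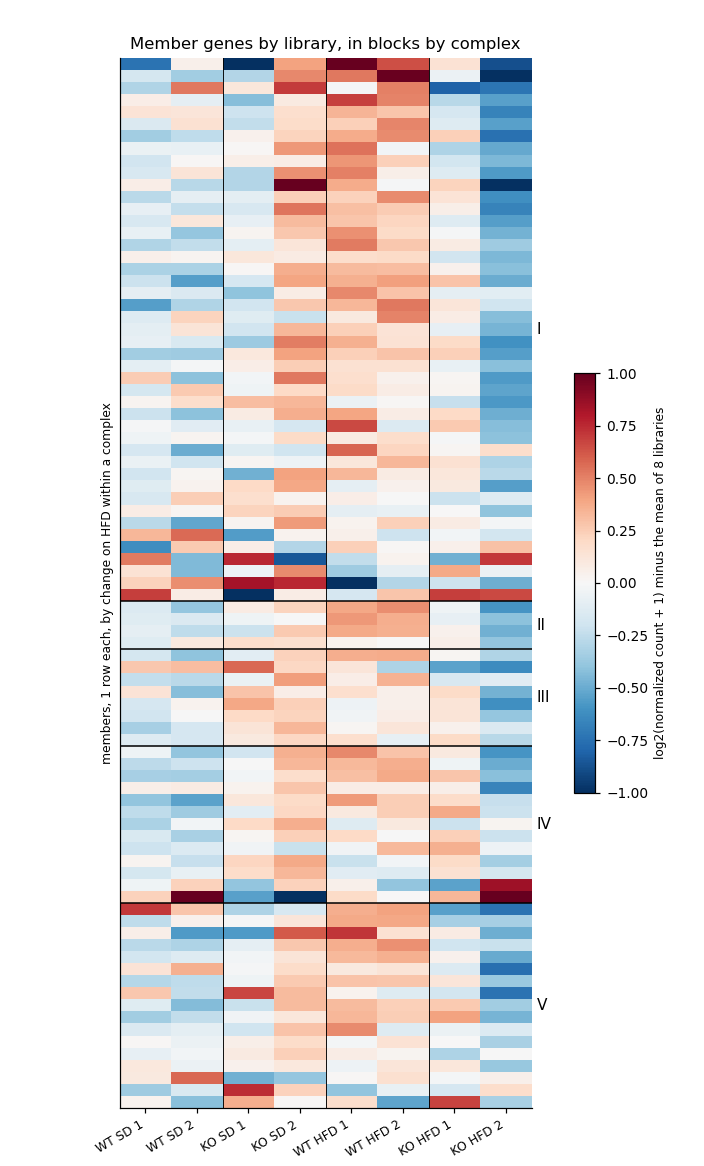
Values of the 87 tested members in each of the 8 libraries, as log2(normalized count + 1) minus the mean of the member over the 8 libraries, in blocks for complexes I to V. Replicate 2 of KO HFD is low across all blocks, with a median over members of -0.42, and the WT HFD libraries are high, at 0.23 and 0.16.

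On HFD, a minority of members was called lower in KO than in WT adipocytes, and none was called higher. Of 87 tested, 9 were called lower, namely Ndufaf1, Ndufb7, Ndufb10 and Ndufs4 of complex I, Sdhc and Sdhd of complex II, Cox6a1 of complex IV, and Atp5e and Atp5f1 of complex V. A call required an adjusted p of at most 0.05 (limma moderated test, Benjamini-Hochberg adjustment over all 18800 genes) and an absolute log2 fold change, computed on normalized count + 1, of 0.59 or more. Over all genes 32.2% were called and 15.1% were called lower, so the share of members called, 10.3%, was below the background in this contrast and this fit. The median change of the members was -0.38 against 0.09 for all genes, and 75 of 87 members lay below 0. The distance between these medians was smaller among genes whose mean reached 50 (-0.39 against -0.14) and under quantile normalization (-0.28 against -0.09). The KO libraries both lay below both WT libraries for 49 of 87 members, against 33.0% of all genes.

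These counts depended on single libraries and on the scale. Taking the WT HFD libraries as 1 sample left 0 members called, against 18.3% of all genes under the same fit. Without KO HFD replicate 1 the count was 30 (31.0% of all genes) and the median of the members -0.63, and without KO HFD replicate 2 they were 2 (19.6%) and -0.19, with 64 of 87 members below 0. Without WT HFD replicate 1 or 2 fewer were called among members and over all genes, and the median of the members was -0.36 or -0.41. Without KO SD replicate 1 more were called in both, with that median at -0.38. With the trend on GC content and length removed the count was 55, against 36.2% of all genes. The members then stood above the background, with a median of -0.81 against -0.21. When libraries were scaled to the same total, the median of members was 0.00 and that of all genes 0.47, with 42 of 87 members below 0, so the lower level of the members held relative to other genes and not on that scale itself. KO HFD replicate 2, the library with the lowest members, also had the lowest sum of adipocyte markers, of which 7 of 8 were called lower in KO on HFD (median -1.65), while 8 of 8 macrophage markers were called higher (median 4.13). Fewer adipocytes and less RNA of these genes per adipocyte cannot be told apart in such bulk samples, and the part of either marker list in the result was not tested.

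Complex I, the entry point for NADH, had 4 of 45 members called, a median of -0.46 and 40 members below 0. Ndufaf1, an assembly factor of its membrane arm on chromosome 2 (119655446 to 119662827, GRCm38), was at 261 and 361 normalized counts in WT against 174 and 83 in KO on HFD. The change of -1.34 ± 0.37 (SE) was the largest among the called members, with an adjusted p of 0.014. Ndufb7, an accessory subunit of the membrane arm, was at 383 and 336 in WT against 196 and 163 in KO, with a change of -1.0 ± 0.25 and an adjusted p of 0.0083. Ndufb10, of the same arm, was at 1127 and 1075 against 793 and 558, and Ndufs4, an accessory subunit near the NADH-oxidizing module, at 1282 and 1519 against 993 and 744. Their changes were -0.73 ± 0.20 and -0.70 ± 0.20, with adjusted p of 0.013 and 0.019, and for all 4 of these genes the KO libraries lay below the WT libraries.

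The core subunits of complex I, most of which carry flavin or iron-sulfur clusters, had changes closer to 0 where described here, and none of those described was called. Ndufs1, the largest of them, was at 2139 and 2128 normalized counts in WT against 1766 and 1281 in KO on HFD, a change of -0.50 ± 0.18 whose adjusted p of 0.047 passed the threshold while its size did not. Ndufv1, which binds NADH, was at 2092 and 2164 against 2092 and 1210, so 1 KO library equalled the lower WT library, and the change of -0.42 ± 0.22 did not pass. The changes of Ndufv2 (-0.40), Ndufs3 (-0.59), Ndufs7 (-0.30) and Ndufs8 (-0.20) were not called either. Ndufs5, a small accessory subunit, had the lowest value of all members at -1.38 ± 0.50 and missed the threshold with an adjusted p of 0.051.

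Complex II, succinate dehydrogenase, had the lowest median of the complexes at -0.62, with 2 of 4 genes called. Sdhd, a membrane anchor subunit encoded on chromosome 9 (50596338 to 50603849), was at 1217 and 1282 normalized counts in WT against 899 and 616 in KO on HFD, a change of -0.75 ± 0.20 (adjusted p = 0.011, limma). Sdhc, the other membrane anchor, was at 1312 and 1248 against 917 and 731, a change of -0.64 ± 0.16 (adjusted p = 0.0093, limma). Sdha, the flavoprotein that oxidizes succinate, was at 5343 and 5257 against 4231 and 2936. Its change of -0.59 ± 0.20 had an adjusted p of 0.036 and fell just short of the limit on size. Sdhb, the iron-sulfur subunit, was at 1302 and 1274 against 1327 and 966, where the groups overlapped, and its change of -0.19 ± 0.18 was not called.

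Complex III, which oxidizes ubiquinol, had 0 of 8 members called in this contrast, although 8 of 8 lay below 0 with a median of -0.24 (2 with an unadjusted p under 0.05). Uqcrfs1, the Rieske iron-sulfur protein, was at 2062 and 2074 normalized counts in WT against 1629 and 1304 in KO, a change of -0.50 ± 0.17 with an adjusted p of 0.040 and a size under the limit. The core proteins Uqcrc1 and Uqcrc2 were at changes of -0.14 ± 0.18 and -0.12 ± 0.16, and neither was called.

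Complex IV, cytochrome c oxidase, had 1 of 13 tested members called and a median of -0.08, the nearest to 0 of the complexes. Cox6a1 was at 551 and 566 normalized counts in WT against 428 and 311 in KO on HFD, a change of -0.61 ± 0.21 with an adjusted p of 0.040. Cox8a, at 4060 and 3555 against 3120 and 1933, had a change of -0.63 ± 0.23 and missed the threshold with an adjusted p of 0.054. Cox4i1 was at 2682 and 2686 against 2658 and 1611, and Cox5b at 579 and 662 against 770 and 532, so Cox4i1 was lower in 1 KO library by far more than in the other, and Cox5b lay on both sides of WT. The tissue isoforms Ndufa4l2, Cox4i2 and Cox6b2 had changes of 0.22, 0.67 and 0.33 with standard errors of 0.60 to 0.77, and none was called.

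Complex V had 2 of 17 members called and a median of -0.32. Atp5e, the ε subunit of the central stalk, was at 661 and 664 normalized counts in WT against 403 and 402 in KO on HFD, a change of -0.72 ± 0.18 with an adjusted p of 0.0094. Atp5f1, the b subunit of the peripheral stalk, was at 1558 and 1664 against 1052 and 1039, a change of -0.62 ± 0.16 with an adjusted p of 0.011. In both genes the KO libraries were close to each other, unlike most members. Atp5b was at 23586 and 24105 against 19469 and 13277, and the γ subunit Atp5c1 at 2852 and 2920 against 2422 and 1581. Their changes of -0.57 ± 0.19 and -0.56 ± 0.19 had adjusted p of 0.036 and 0.039 and were under the limit on size. Atp5a1 had a change of -0.41 ± 0.18 (adjusted p = 0.10, limma), and the c subunit genes Atp5g1, Atp5g2 and Atp5g3 changes of -0.07, 0.35 and -0.32, none of them called.

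**Figure D3:**
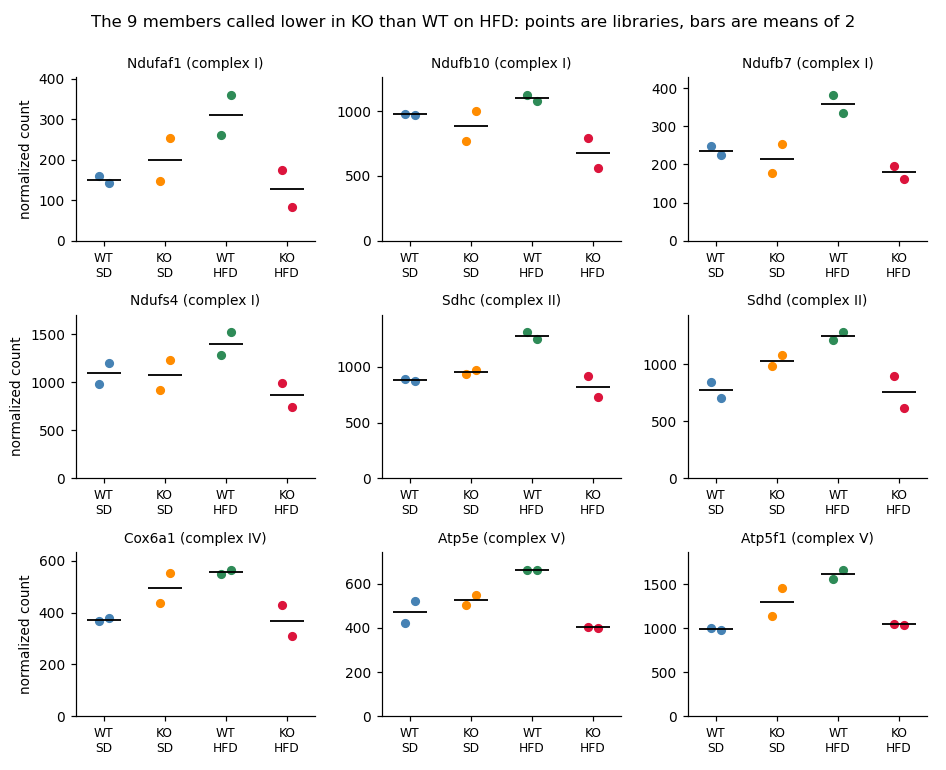
Normalized counts of the 9 members called lower in KO than in WT on HFD, in every library, with axes from 0 and bars at the mean of 2 libraries. In all 9 the KO HFD libraries lie below the WT HFD libraries, and the distance between the KO HFD libraries ranges from 1 normalized count in Atp5e to 283 in Sdhd.

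On SD, no member was called between KO and WT, and the values leaned the other way. The median of the members was 0.25 against -0.01 for all genes, 73 of 87 members lay above 0, and 11 had an unadjusted p under 0.05 (limma), while 4.71% of all genes were called. The KO libraries both exceeded both WT libraries for 43 of 87 members, against 22.8% of all genes. The median was 0.14 without KO SD replicate 2 and 0.39 without KO SD replicate 1. Cox7a2, a ubiquitous small subunit of complex IV, was at 298 and 271 normalized counts in WT against 426 and 448 in KO on SD, with a change of 0.62 ± 0.21 and an adjusted p of 0.13. Ndufv1 was at 1393 and 1387 against 1909 and 2351, a change of 0.61 ± 0.22. The smallest adjusted p, 0.08, belonged to Cox4i2, which was at 40 and 90 in WT and 23 and 4 in KO, a change of -2.48 ± 0.73. The 8 macrophage markers were also called higher in KO on SD (median 2.19), and 0 of 8 adipocyte markers were called (median -0.10). Skeletal muscle markers summed to 158 and 122 normalized counts in WT on SD against 1419 and 2266 in KO on SD, mostly from the muscle actin Acta1, with 1 of 4 called higher (median 1.74), and 2 of 4 brown and beige adipocyte markers were called higher (median 1.5). KO SD replicate 2, in which the members were highest (median 0.24 above their mean of 8 libraries), also had the highest muscle sum. Its adipocyte markers summed to 215178, against 148563 in KO SD replicate 1. Its macrophage markers summed to 15602 against 28554, and its endothelial markers to 10155 against 18092. Endothelial markers lay below 0 in 4 of 4 cases (median -0.73, 0 called), and 1 of 5 fibroblast and progenitor markers was called higher. The part of these cells in the values of the members was not tested.

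In WT adipocytes, 8 of the 87 members tested were called higher on HFD than on SD and 0 lower. The share called higher, 9.2%, was close to the 8.74% of all genes called higher (18.0% in either direction), so in this fit the count itself does not set the members apart. With the trend on GC content and length removed, 36 members were called, all higher, against 21.6% of all genes called in either direction. Without that correction the median of the members was 0.30 against -0.08 for all genes, and 71 lay above 0. It was 0.32 against 0.10 among genes whose mean reached 50 and 0.21 against 0.03 under quantile normalization. Scaling to the same total turned the median of the members to -0.11 and that of all genes to -0.48, with 1 member called lower and 0 higher, so the members' median lay above that of all genes on both scales and above 0 on the deposited scale alone. With the WT HFD libraries as 1 sample 0 members were called, against 2.87% of all genes. No member call held without any 1 of the 4 WT libraries, and fewer genes were called over all. The median of the members was then 0.23 to 0.34, against -0.10 to -0.04 for all genes. Without either KO HFD library more were called among members and over all genes, and the median of the members stayed at 0.30.

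Ndufa8 of complex I was at 319 and 379 normalized counts on SD and 588 and 674 on HFD in WT, a change of 0.85 ± 0.22 (adjusted p = 0.018, limma). Cox7a2 was at 298 and 271 against 528 and 467, a change of 0.80 ± 0.21 (adjusted p = 0.019, limma). Ndufa10, a large accessory subunit, was at 1598 and 1267 against 2382 and 2466, a change of 0.77 ± 0.25 (adjusted p = 0.045, limma). In each of these the HFD libraries exceeded the SD libraries.

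Atp5f1 was at 1005 and 978 normalized counts on SD and 1558 and 1664 on HFD in WT, and its adjusted p of 0.012 was the smallest of the members in this contrast, with a change of 0.70 ± 0.16. Sdhd (0.69 ± 0.20), Cox6b1 (0.68 ± 0.21), Uqcrfs1 (0.65 ± 0.17) and Ndufs1 (0.63 ± 0.18) were the others, with adjusted p of 0.028, 0.039, 0.022 and 0.029. The abundant Atp5a1 and Sdhc passed on p alone, at 0.55 ± 0.18 and 0.54 ± 0.16. Members without a rise included Cox4i1 (0.01 ± 0.20), Sdhb (0.03 ± 0.18) and Atp5d (0.08 ± 0.16), none of them called. Adipocyte markers moved the same way (2 of 8 called higher, median 0.66) and macrophage markers the opposite way (7 of 8 called lower, median -1.17). Also called lower were 2 of 4 endothelial, 2 of 5 fibroblast and progenitor, 1 of 3 lymphocyte and 1 of 4 mesothelial markers, while 1 of 5 fibroblast and progenitor and 1 of 4 skeletal muscle markers were called higher. The part of these cells was not tested.

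In KO adipocytes the diet comparison called 1 member of 87. Uqcr11, a small subunit of complex III, was at 892 and 691 normalized counts on SD and 414 and 387 on HFD, a change of -0.97 ± 0.20 with an adjusted p of 0.041. The share of members called, 1.15%, was close to the 1.07% of all genes. The median of the members was -0.30 against 0.03, and 75 of 87 lay below 0. Without KO HFD replicate 1 more were called, the share of members exceeded that of all genes, and the median of the members was -0.51. No member call held without replicate 2 of KO HFD or of KO SD, with member medians of -0.10 and -0.18. The call of Uqcr11 did not hold without any 1 of the 4 WT libraries either. In all these fits without a call, fewer genes were called over all. Without KO SD replicate 1 Uqcr11 was not called, another member was called higher, and more genes were called over all. Uqcr11 itself was at 724 and 743 on SD and 651 and 483 on HFD in WT, where the change of -0.39 ± 0.20 was not called. Adipocyte markers lay below 0 in 8 of 8 cases (median -0.84, 0 called), while 1 of 8 macrophage markers (median 0.81) and 2 of 5 fibroblast and progenitor markers (1.37) were called higher and 1 of 4 skeletal muscle markers lower. Their part was not tested.

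**Figure D4:**
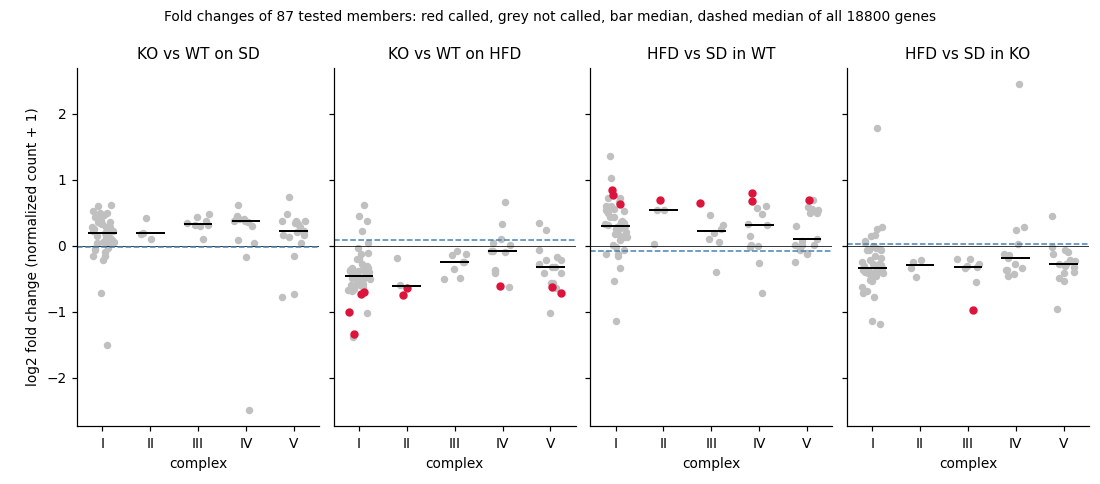
Log2 fold changes of the 87 tested members in the 4 pairwise comparisons, by complex, with called members in red, a bar at the median of each complex and a dashed line at the median of all 18800 genes tested. Members lie mostly above 0 for KO against WT on SD (median 0.25) and for HFD against SD in WT (0.30), and mostly below 0 for KO against WT on HFD (-0.38) and for HFD against SD in KO (-0.30).

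For 10 of 87 members the knockout had a different effect on each diet, a share of 11.5% against 17.4% of all genes. All 10 had a lower value on HFD than on SD in the test of the difference itself, where 8.73% of all genes were called in that direction. The median difference of the members was -0.60 against 0.10 for all genes, with 80 of 87 below 0. Among genes whose mean reached 50 the medians were -0.61 and -0.15. With the trend on GC content and length removed, 49 members were called against 21.6% of all genes, above the background and not below it, and the median was -1.03 against -0.19. When libraries were scaled to the same total the median was -0.17 against 0.52, with 0 members called lower and 1 higher. Ndufaf1 (-1.70 ± 0.52), Sdhd (-1.16 ± 0.28), Ndufv1 (-1.03 ± 0.31), Ndufs1 (-1.01 ± 0.26) and Cox6a1 (-1.01 ± 0.30) had the lowest values among these 10, with adjusted p of 0.041, 0.016, 0.039, 0.021 and 0.036. Sdhd gives the pattern in its 8 libraries, with 844 and 709 normalized counts in WT SD, 984 and 1083 in KO SD, 1217 and 1282 in WT HFD, and 899 and 616 in KO HFD.

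This count rested on few libraries. No member call held with the WT HFD libraries as 1 sample or without any 1 of the 4 WT libraries. Fewer genes were called over all in those fits too. The median of the members was then -0.63 to -0.57, against 0.06 to 0.13 for all genes. More were called without replicate 1 of KO HFD or of KO SD, where the share of members exceeded that of all genes. The medians of the members were then -0.79 and -0.70. Fewer were called among members and over all genes without replicate 2 of KO HFD or of KO SD, with member medians of -0.43 and -0.45. Cox4i2 stood apart from the other members with a difference of 3.15 ± 1.03, not called (adjusted p = 0.052, limma), from values of 40, 90, 23, 4, 39, 34, 43 and 80 in the order WT SD, KO SD, WT HFD and KO HFD. In the same test 7 of 8 adipocyte markers were called lower (median -1.5), and 8 of 8 macrophage (1.98), 3 of 4 endothelial (1.33) and 4 of 5 fibroblast and progenitor markers higher (2.03). The fifth of the latter, Dpt, was called lower, as was 1 of 4 skeletal muscle markers, and 1 of 4 mesothelial markers was called higher. The part of these cells was not tested. Of the complexes, II had the lowest median difference at -0.77 and IV the nearest to 0 at -0.45.

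**Figure D5:**
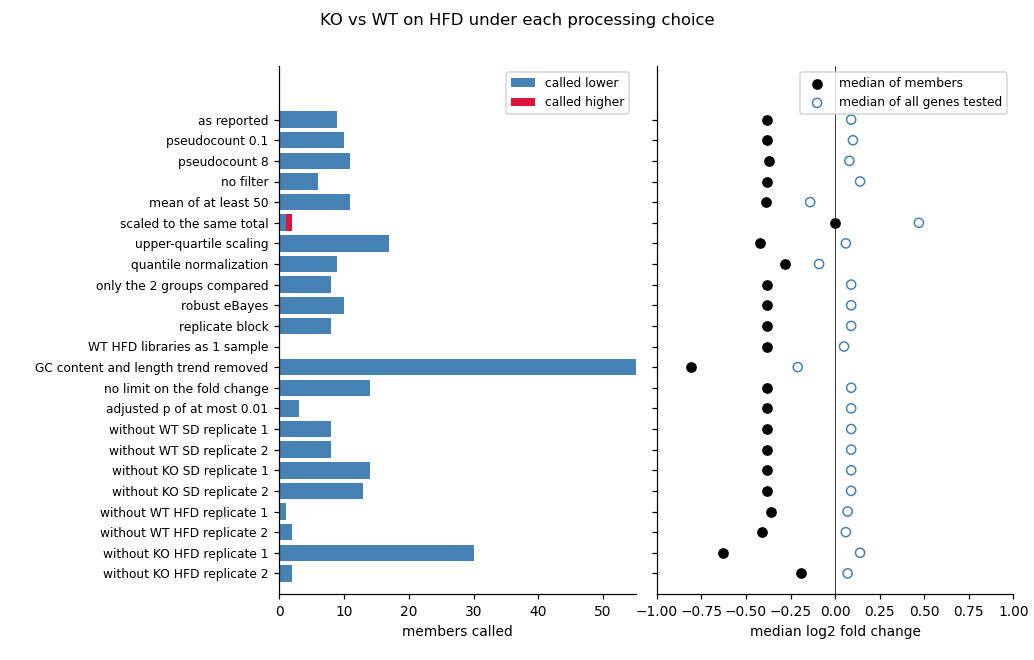
Members called between KO and WT on HFD (left, bars from 0) and the median log2 fold change of the members and of all genes tested (right), for the reported processing and each alternative. The count runs from 0 with the WT HFD libraries as 1 sample to 55 with the trend on GC content and length removed, and the members' median lies below that of all genes in every row.

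Subunits encoded by mitochondrial DNA lay above 0 in KO against WT on HFD, where most nuclear members lay below. Rows for mt-Nd4l, mt-Co2, mt-Atp6 and mt-Atp8 were absent, and mt-Nd3 and mt-Co3 were at 2 normalized counts at most in any library. The list thus covers only part of these subunits. Of 9 mitochondrial genes analysed here, 7 passed the filter. Of the 7, 5 were called higher in KO on HFD (median 0.66), against 17.1% of all genes called higher. On SD 2 were called higher (median 0.77), against 3.21% of all genes. The 8 macrophage markers were called higher in the same contrasts (medians of 4.13 and 2.19), and their part was not tested. mt-Cytb, the cytochrome b of complex III, was at 16794 and 15634 normalized counts in WT SD, 24751 and 36017 in KO SD, 25120 and 21798 in WT HFD, and 40107 and 40168 in KO HFD. Its changes were 0.88 ± 0.20 on SD and 0.78 ± 0.20 on HFD, with adjusted p of 0.022 and 0.0093, and on both diets the KO libraries lay above the WT libraries. The nuclear partners in that complex, Uqcrc1 and Uqcrc2, were at -0.14 and -0.12 on HFD. The median of the difference between the diets was -0.10 for the mitochondrial genes, with 0 of 7 called (0 with an unadjusted p under 0.05) and -0.60 for the nuclear members. These genes and the nuclear members were not compared by a test.

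Of the assembly factors that the symbol rule had not taken in, 33 were tested, and 11 were called lower and 0 higher in KO than in WT on HFD. That is 33.3% against 15.1% of all genes called lower, and the median of the list was -0.57. The list summed to 12325 and 11870 normalized counts in WT on HFD and to 8927 and 6670 in KO on HFD, lowest in KO HFD replicate 2 as for the members, and the part of the adipocyte and macrophage markers that moved in this contrast was not tested. Tmem126b, of the complex I assembly machinery, was at 671 and 534 normalized counts in WT against 286 and 212 in KO on HFD, a change of -1.28 ± 0.24 (adjusted p = 0.0013, limma). Sdhaf4, which aids the maturation of Sdha, was at 94 and 110 against 41 and 28, a change of -1.56 ± 0.47 (adjusted p = 0.023, limma). In WT, 7 of 33, or 21.2% against 8.74% of all genes, were called higher on HFD than on SD, among them Sdhaf4 (1.57 ± 0.47) and Cox19 (1.13, adjusted p = 0.015 by limma), a factor for the copper supply of complex IV.

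Electron carriers and enzymes of ubiquinone synthesis were mixed, with 3 of 15 called lower and 1 higher in KO on HFD (median -0.36), a total of 26.7% that was below the 32.2% of all genes. Coq2, which attaches the isoprenoid tail of ubiquinone, was at 1089 and 1090 normalized counts in WT against 521 and 377 in KO, a change of -1.30 ± 0.20 (adjusted p = 0.00031, limma), and Pdss1, which makes that tail, had a change of 0.98 in the other direction (adjusted p = 0.015, limma). Cytochrome c (Cycs) and the complex III subunit Cyc1, which the symbol rule leaves out, had changes of 0.06 and 0.02 and were not called. In WT, 4 of 15 were called higher on HFD, against 8.74% of all genes, led by Coq7 (1.31) and Coq2 (0.91 ± 0.20). The adipocyte and macrophage markers given above moved in both contrasts. Their part in this list and in the assembly factors was not tested.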

How the data were processed

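RNA from isolated epididymal white adipocytes (ribosomal RNA depleted, stranded SMARTer libraries, single-end reads) was available as 8 libraries in 4 groups of 2. Upstream, the authors used Reaper for trimming, STAR 2.5.2b for alignment to GRCm38, featureCounts 1.5.1 for unique reads per gene and DESeq2 1.14.1. The deposited values are whole-number scores, namely gene counts that the authors scaled by a size factor for each library and then rounded. As rounded values are not counts, no count model was fitted. From the spacing of low values 1 read was worth 0.7952 to 1.135 normalized counts, an estimate accurate to 0.0001 in simulated data.

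Of 30387 genes, the 18800 whose mean was 5 or more were tested on log2(value + 1) with limma 3.58.1 in R 4.3.3, with 4 group means, a mean-variance trend, 4 residual degrees of freedom and Benjamini-Hochberg adjustment over all genes. A member was called at an adjusted p of at most 0.05 and an absolute log2 fold change of 0.59 or more. All tests were two-sided. The scripts were checked on simulated data. The labels do not say whether the libraries of a group come from separate mice, and the study counts them as mice, so the p-values measure the spread between libraries. Gene spans and exon lengths are those of GENCODE vM21, which held all 88 members, and promoters come from RefSeq (GRCm38.p6). Figures were drawn in Python.

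The members, the other lists (subunits of mitochondrial DNA, further assembly factors, electron carriers and ubiquinone synthesis, regulators, the excluded isoforms and cell type markers) and the tests were chosen with earlier results of these data known. The rule for named genes covered the complex II genes, core subunits, paralogs, the called genes with the largest changes and the targeted genes, not all of which are described. Other members, such as the remaining called ones and those picked out for a high or low level or for a change near a threshold, were named after their values were seen. Alternatives covered the pseudocount, the filter, scaling, the fit, the thresholds, a trend on GC content and length, and leaving out each library.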

Additional observations from a re-analysis of the deposited data

Results flagged for a closer look

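For 10 members the effect of the knockout on HFD differed from that on SD by the limma interaction test across all genes. The differences, effect on HFD minus effect on SD on the log2 scale, were -1.70 for Ndufaf1, -1.16 for Sdhd, -1.03 for Ndufv1, -1.01 for Ndufs1 and for Cox6a1, -1.0 for Atp5f1, -0.98 for Cox7a2, -0.88 for Atp5e, -0.86 for Uqcrfs1 and -0.76 for Sdhc. In each of the 10, both KO HFD libraries had a lower value than the mean of the WT HFD libraries, and both KO SD libraries lay above the mean of the WT SD libraries except in Ndufaf1, where KO SD replicate 1 was at 148 normalized counts against 160 and 142 in WT SD. Groups of 2 libraries are too small for a test of single outlying libraries.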

How the results depend on the processing

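Depth and 2 libraries a group limit what can be told for members below about 50 normalized counts, and 1 library a group decided many calls. Members called between KO and WT on HFD (9 as reported) numbered 2 with libraries scaled to the same total (1 higher and 1 lower, of which 1 was among the 9), 17 with upper-quartile scaling, 0 with the WT HFD libraries as 1 sample, 55 with the trend on GC content and length removed, 14 with no limit on the fold change, 3 at an adjusted p of at most 0.01, and 1 to 30 when single libraries were left out. For HFD against SD in WT (8 as reported) they numbered 2 with no filter, 1 (lower) when scaled to the same total, 1 under quantile normalization, 15 with only the 2 groups compared, 0 with the WT HFD libraries as 1 sample, 36 with the GC and length trend removed, 0 at an adjusted p of at most 0.01, and 0 to 13 without single libraries. For HFD against SD in KO (1 as reported) they numbered 0 with a pseudocount of 0.1, with no filter, with only the 2 groups compared, at an adjusted p of at most 0.01 and with the WT HFD libraries as 1 sample, 2 with a pseudocount of 8, upper-quartile scaling, quantile normalization or the GC and length trend removed, and 0 to 8 without single libraries. For the difference between the diets (10 as reported) they numbered 0 with no filter, 1 (higher) when scaled to the same total, 2 under quantile normalization, 0 with the WT HFD libraries as 1 sample, 49 with the GC and length trend removed, 0 at an adjusted p of at most 0.01, and 0 to 34 without single libraries. For KO against WT on SD the count was 0 under each of these alternatives and 0 to 1 without single libraries. Quantile normalization gave 9 called between KO and WT on HFD, of which 5 were among the 9 as reported. Scaled to the same total, the diet comparison in KO had 1 member called lower, which was not Uqcr11. The cause of these shifts was not tested.

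The direction between KO and WT on HFD turned for members that had not been called. Scaled to the same total, 45 of 87 members lay above 0, against 12 as reported. Of the members followed one by one, those that turned on that scale were at 0.01 for Cox4i1, 0.20 for Sdhb and 0.24 for Uqcrc1, and under quantile normalization 0.10 for Atp5a1, 0.08 for Atp5b and 0.12 for Uqcrc1. Without single libraries Sdhb ranged from -0.41 to 0.04 and Uqcrc1 from -0.41 to 0.12, both highest without KO HFD replicate 2. None of the 28 called values of members changed sign under any alternative.

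Libraries with the same replicate number did not deviate together over all genes tested (correlations of -0.11 to 0.04 between groups). With 2 libraries a group this cannot show whether the numbers pair the samples. With the replicate number as a block, 8 members were called between KO and WT on HFD, 6 for the diet in WT, 0 for the diet in KO, 0 for the knockout on SD and 3 for the difference between the diets.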

Other observations

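Of 15 regulators of respiratory genes and of mitochondrial DNA, 2 were called higher and 1 lower in KO than in WT on HFD, while 11 lay below 0 with a median of -0.27, against 0.09 for all genes. The share called, 20.0%, was below the 32.2% of all genes. Nrf1, the factor whose motif was counted in the promoters above, was at 268 and 230 normalized counts in WT against 472 and 395 in KO on HFD, a change of 0.80 ± 0.26 (adjusted p = 0.031, limma). The co-repressor Nrip1 had a change of -1.28 (adjusted p = 0.0014, limma) and the coactivator Pprc1 one of 0.83 (adjusted p = 0.0025, limma). Ppargc1a, the coactivator best known for raising mitochondrial content, was at 187 and 179 in WT and 182 and 150 in KO on HFD, and its change of -0.15 was not called.

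The orphan receptor gene Esrrg was at 9 and 10 normalized counts in WT SD, 53 and 55 in KO SD, 77 and 47 in WT HFD, and 65 and 60 in KO HFD. It was called higher in KO on SD (2.39 ± 0.49, adjusted p = 0.013, limma) and on HFD in WT (2.54 ± 0.49, adjusted p = 0.0051, limma). Tfam, which packages and transcribes mitochondrial DNA, was called higher on HFD in WT (0.68, adjusted p = 0.042, limma).

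Of the isoform genes that the rule left out, Cox8b, found in muscle and brown fat, was at 71 and 9 normalized counts in WT SD, 236 and 266 in KO SD, 84 and 50 in WT HFD, and 458 and 247 in KO HFD. It was called higher in KO on SD (3.23 ± 0.68, adjusted p = 0.015, limma) and on HFD (2.36 ± 0.68, adjusted p = 0.018, limma). Cox7a1 was at 7 to 60 in all libraries and was not called. The ubiquitous Cox8a, at 1933 or more, was not called in either comparison.

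Markers of other cell types in KO against WT on HFD were as follows, where 17.1% of all genes were called higher and 15.1% lower. Of fibroblast and progenitor genes 3 of 5 were called higher (median 1.73) and of endothelial genes 1 of 4 (median 0.60). Of lymphocyte genes 1 of 3 was called higher (median 1.90), and of brown and beige adipocyte genes 1 of 4 (median 1.65), namely Cox8b again. Of mesothelial genes 1 of 4 was called higher and 1 lower (median -1.14), and of skeletal muscle genes 1 of 4 higher and 1 lower (median 1.80). The 3 genes of epididymis and testis were too low to be tested, with a sum of 39 normalized counts in KO HFD replicate 2 and at most 9 in any other library.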
